A study of Mus musculus with 10 samples.

Results

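The expression of 10 genes of hepatic gluconeogenesis and amino acid breakdown was examined in the livers of mice given TM5614. The genes were taken by name, as core enzymes and a transporter (Slc37a4) by which the liver makes glucose and feeds it with amino acid carbon. They were G6pc, Slc37a4, Pck1, Pck2, Fbp1, Pcx, Tat, Sds, Got1 and Gpt. All 10 were among the 24421 genes listed in the deposited count table, and all 10 were among the 11092 genes with enough counts to be tested. The livers came from 10 male wild-type C57BL/6 mice (C57BL/6 J in the study's methods), 21 weeks old, with free access to food on a 14/10-h light/dark cycle. In the Chow group (n = 5) the diet was standard chow alone. In the TM5614 group (n = 5) it held TM5614, an oral small molecule inhibitor of plasminogen activator inhibitor 1 (PAI-1), added to give 20 mg/kg/day over 10 days. Each mouse gave 1 library of polyadenylated liver RNA, so the replicates are separate animals. The question the design puts to these genes is whether their mRNA levels differed between mice with and without the inhibitor.

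Gluconeogenesis is the synthesis of glucose from lactate, glycerol and amino acids, and the liver is its main site. It runs through the glycolytic enzymes in reverse, except at irreversible steps, where pyruvate carboxylase, phosphoenolpyruvate carboxykinase, fructose bisphosphatase and glucose-6-phosphatase take their place. Glucagon and glucocorticoids are known to raise transcription of several of these enzymes in fasting, and insulin is known to lower it after feeding. Aminotransferases and dehydratases pass the carbon of amino acids to pyruvate, oxaloacetate and related acids, from which the pathway starts.

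The 10 libraries held from 6398335 counts (Chow replicate 4) to 10874955 counts (Chow replicate 2). The hepatocyte markers were abundant in all libraries, with 7 of 8 listed and a summed level of 113525 to 130285 CPM (counts scaled to a common library total) in Chow and 98471 to 117430 CPM in TM5614. Of the kidney, the other gluconeogenic organ, 4 marker genes (Slc34a1, Kap, Slc22a6 and Umod) were at 0 in all libraries. The 4 hemoglobin genes were also at 0, while Alas2, also an erythroid marker, was at 62.4 CPM in Chow and 48.7 CPM in TM5614. A count of 0 here therefore does not by itself show that an RNA was absent. Chow replicate 2 stood apart from its group: its counts differed from those of the other Chow libraries by a chi-square per degree of freedom of 78.4 to 126, against 9.45 to 20.0 among the others. TM5614 replicate 2 held skeletal muscle transcripts, with a summed level of 4383 CPM over 12 muscle genes. That sum did not exceed 78.8 CPM in any other TM5614 library or 1.25 CPM in Chow. Of those 12 muscle genes, 0 passed the filter for testing, which does not keep muscle RNA out of the genes that were tested. Every fold change of the 10 genes was also computed without Chow replicate 2 and TM5614 replicate 2. In bulk tissue fewer cells of a type and less RNA per cell cannot be told apart.

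The sequences before the RefSeq start sites of G6pc, Slc37a4 and Pck1 are shown because their estimates differed. G6pc rose, and Slc37a4 was lower by a call that was lost in 13 of 22 alternative fits. Pck1, the most abundant, gave no detectable change. RefSeq promoters on GRCm38.p6 were matched for 8 of the 10 genes, with 11 start sites. Capitals mark the letters TGACG or CGTCA (the core of the cAMP response element, contained in TGACGTCA), TGTTTTG (the core of an insulin response sequence) and TATAAA (the TATA box). All runs lie on the plus strand and are written 5′ to 3′. GENCODE places the starts of these genes 155, 94 and 25 bases before those of RefSeq, so the longer runs end where the GENCODE gene begins and matches past that point are shown within 30 bases.
G6pc, chr11:101367466-101367560: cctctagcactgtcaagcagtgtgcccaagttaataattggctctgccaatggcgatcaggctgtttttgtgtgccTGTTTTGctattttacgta
G6pc, chr11:101367675-101367704: gaatccagggcaTATAAAacaggggcaagg
Slc37a4, chr9:44396872-44396901: ttgacaggcaggaTGACGtctccatcccag
Pck1, chr2:173152823-173153047: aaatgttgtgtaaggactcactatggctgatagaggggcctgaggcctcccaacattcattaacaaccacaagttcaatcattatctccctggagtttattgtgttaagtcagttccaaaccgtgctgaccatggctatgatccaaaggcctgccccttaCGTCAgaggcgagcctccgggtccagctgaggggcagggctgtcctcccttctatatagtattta

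Counted from the RefSeq start, TGTTTTG began at -174 and TATAAA at -29 in G6pc, CGTCA began at -90 in Pck1, and TGACG began at -61 in Slc37a4. These are matches of letters on either strand and not measured sites. The same windows of all 32851 RefSeq promoters held TGACG in 17.8%, TGTTTTG in 5.56% and TATAAA in 12.4%. These shares are per start site, and of the 11 start sites matched 3 held TGACG, 2 held TGTTTTG and 2 held TATAAA. By gene, TGACG was found in Pck1 and Slc37a4, TGTTTTG in G6pc and Pck2, and TATAAA in G6pc and in another start of Slc37a4. The E-box CACGTG was found in 1 of the 11 start sites, in Pcx, against 6.02% of all promoters. The full element TGACGTCA (1.55% of all promoters), the forkhead letters TGTTTAC (3.17%) and the glucocorticoid letters TGTTCT (16.1%) were found in 0 of the 11 start sites.

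Differences were tested by edgeR (quasi-likelihood, Benjamini-Hochberg adjustment over all 11092 genes), and 2 of the 10 genes passed an adjusted p of 0.05. G6pc was higher and Slc37a4 was lower in TM5614, and the other 8 did not pass. Over all genes tested, 4.50% passed, 1.73% higher and 2.77% lower. The CPM values of Chow and TM5614 did not overlap in 1 of the 10, G6pc, where 8.93% of all genes tested had groups that did not overlap (4.07% with TM5614 higher and 4.87% with TM5614 lower). At an unadjusted p under 0.05, 4 of the 10 passed (G6pc, Slc37a4, Got1 and Gpt), against 20.4% of all genes. DESeq2 and limma-voom each called 3 of the 10 (G6pc, Slc37a4 and Gpt), against 8.14% and 12.5% of all genes. The median log2 fold change of the 10 was -0.06, and that of all genes tested was 0.01. With 10 genes chosen by name, these counts describe the list and say nothing particular to it.

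**Figure D1:**
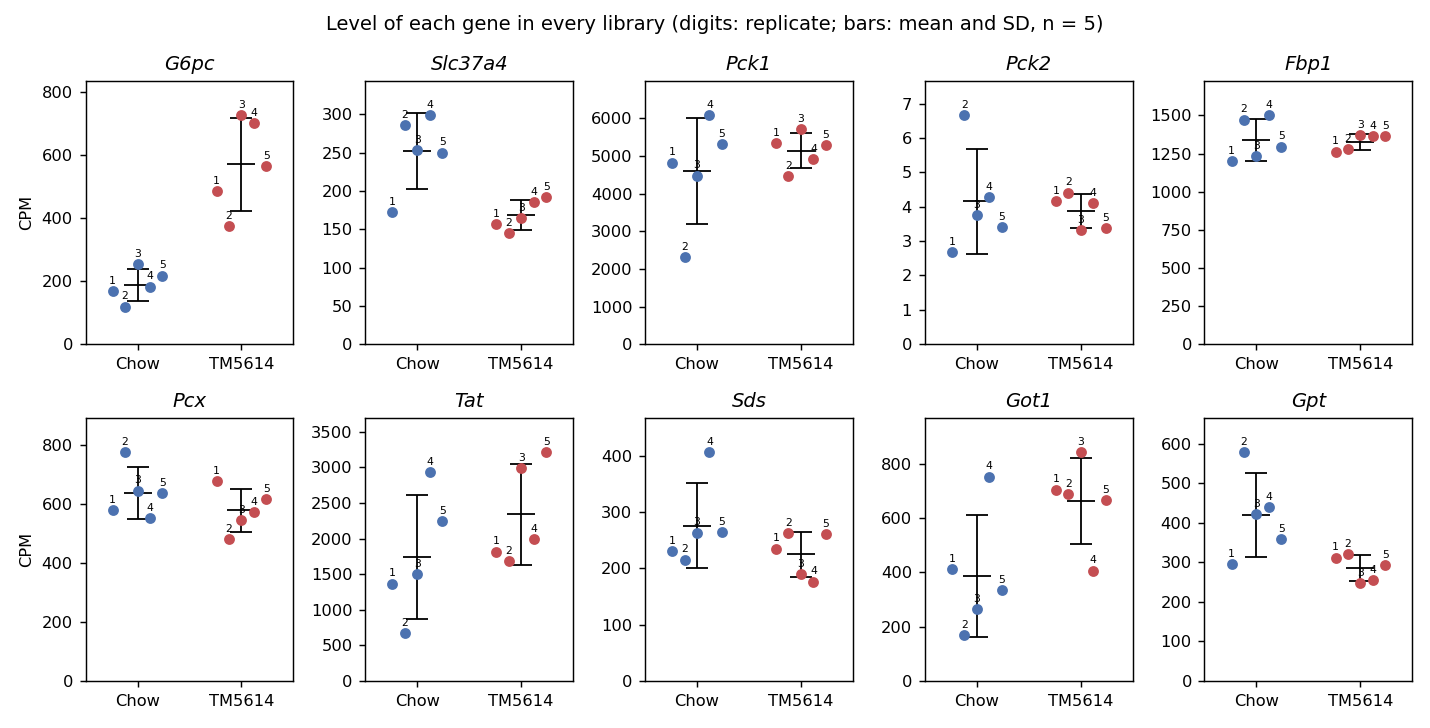
Level of each of the 10 genes in every library, in CPM on a linear axis from 0. Blue points are Chow and red points TM5614, digits give the replicate, and bars give the mean and SD (n = 5 per group). G6pc is the gene whose groups do not overlap, with Chow between 119 and 253 CPM and TM5614 between 375 and 726 CPM.

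The last step of glucose production is carried by the glucose-6-phosphatase system of the endoplasmic reticulum. G6pc (ENSMUSG00000078650.2, chromosome 11, 101367561 to 101377903, plus strand, protein-coding) encodes its catalytic subunit, which releases free glucose. Its level in Chow replicates 1 to 5 was 168, 119, 253, 183 and 217 CPM. In TM5614 replicates 1 to 5 it was 485, 375, 726, 700.4 and 566 CPM. Every TM5614 library lay above every Chow library, and Chow replicate 3, the highest of its group, lay below TM5614 replicate 2, the lowest of its own. The group means were 188 ± 50.7 CPM in Chow and 571 ± 147 CPM in TM5614 (SD, n = 5 each). G6pc rose 3.03-fold (95% interval 2.17 to 4.24), or by 1.60 on the log2 scale (SE 0.22, edgeR adjusted p = 0.00185). The exact two-sided permutation test over libraries gave p = 0.00794, the smallest value that its 252 splits allow. G6pc held 1155 to 6333 counts per library. Of all genes tested, 84 (0.757%) had an absolute log2 fold change at least as large. The call was kept in all 22 alternative fits that test it, with log2 fold changes from 1.47 to 1.73. It was 1.59 without Chow replicate 2 and TM5614 replicate 2 (edgeR adjusted p = 8.84e-05).

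Slc37a4 (ENSMUSG00000032114.9, chromosome 9, 44396852 to 44402968, plus strand, protein-coding) encodes the transporter that brings glucose-6-phosphate to that phosphatase. Its level in Chow replicates 1 to 5 was 172, 286, 254, 299 and 250.2 CPM. In TM5614 replicates 1 to 5 it was 156, 145, 164, 186 and 192 CPM. Chow replicate 1 lay within the TM5614 range, the other 4 Chow libraries lay above all TM5614 libraries, and 3 of 5 TM5614 libraries lay below all Chow libraries. The means were 252 ± 49.1 and 169 ± 19.9 CPM (SD, n = 5 each), and Slc37a4 fell by 0.58 on the log2 scale (SE 0.15, 95% interval -0.90 to -0.25, edgeR adjusted p = 0.0485). This call lay close to the threshold and was kept in 9 of 22 alternative fits, with adjusted p-values from 0.00757 to 0.131. It passed without Chow replicate 1 or Chow replicate 2, and was lost without any other single library (adjusted p from 0.0699 to 0.131). With GC content and gene length corrected the log2 fold change was -0.43 (edgeR adjusted p = 0.112). With that correction and a block on the replicate number it was -0.42 (edgeR adjusted p = 0.0240).

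The estimates of the catalytic subunit and the transporter thus had opposite signs, and the call of the transporter was lost in 13 of 22 alternative fits. In each library the counts of G6pc were set over those of Slc37a4. This ratio lay between 0.417 and 0.998 in the Chow libraries, with a median of 0.869, and between 2.59 and 4.42 in the TM5614 libraries, with a median of 3.10. Per gene length, as the ratio of FPKM, it lay between 0.466 and 1.11 in Chow, above 1 in Chow replicates 1 and 3, and between 2.89 and 4.93 in TM5614. On either scale the groups did not overlap. The ratio rests on the same counts as the tests above and was given no test of its own. The groups did not overlap in G6pc alone, so the separation of the ratio does not show that Slc37a4 fell. G6pc3, the widely expressed relative of G6pc, was low, at 6.41 CPM in Chow and 5.73 CPM in TM5614 (log2 fold change -0.17, edgeR adjusted p = 0.695).

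**Figure D2:**
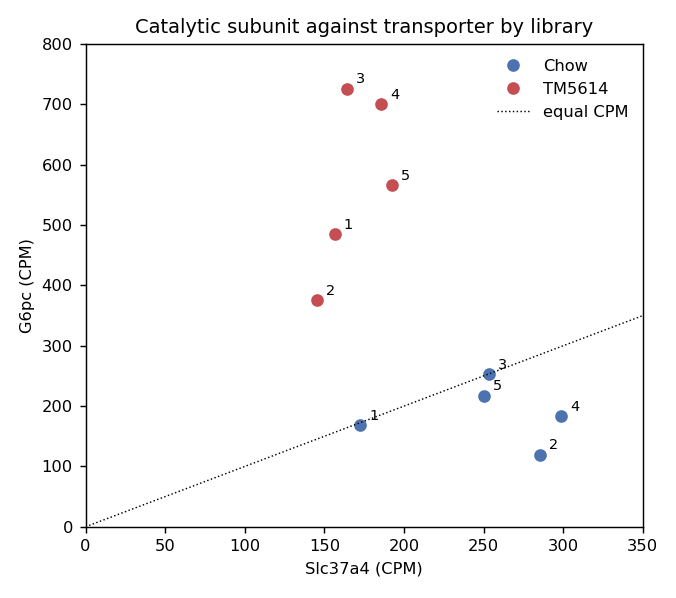
G6pc against Slc37a4 in each library, both in CPM on linear axes. Blue points are Chow, red points TM5614, digits give the replicate, and the dotted line marks equal CPM. The 5 TM5614 libraries lie above the line, with 2.59 to 4.42 counts of G6pc per count of Slc37a4, and the 5 Chow libraries lie below it, with 0.417 to 0.998.

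Phosphoenolpyruvate carboxykinase turns oxaloacetate into phosphoenolpyruvate and has a cytosolic form, Pck1, and a mitochondrial form, Pck2. Pck1 (ENSMUSG00000027513.11, chromosome 2, 173153048 to 173159273, plus strand) was at 4825, 2321, 4481, 6082 and 5308 CPM in Chow replicates 1 to 5. It was at 5352, 4458, 5708, 4928 and 5287 CPM in TM5614 replicates 1 to 5. Chow replicate 2 was the lowest library and Chow replicate 4 the highest, and the TM5614 values lay between them. The means were 4604 ± 1410 and 5147 ± 474 CPM (SD, n = 5 each), and the log2 fold change of 0.16 (SE 0.21, 95% interval -0.29 to 0.61) did not pass (edgeR adjusted p = 0.677). Without Chow replicate 2 it was -0.01. A change of the size seen in G6pc lies outside the interval for Pck1. Pck1 gave 35.1 to 52.2% of the counts of the 10 genes in Chow and 42.4 to 48.6% in TM5614.

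Pck2 (ENSMUSG00000040618.7, chromosome 14, 55540266 to 55551242, plus strand) was the least abundant of the 10, with 22 to 69 counts per library. It lay between 2.67 and 6.66 CPM in Chow and between 3.33 and 4.41 CPM in TM5614, and the TM5614 range fell inside that of Chow. Its log2 fold change of -0.11 (SE 0.24, 95% interval -0.63 to 0.42) did not pass (edgeR adjusted p = 0.828). The highest value was that of Chow replicate 2, and without that library the estimate was 0.13.

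Fbp1 (ENSMUSG00000069805.10, chromosome 13, 62864753 to 62888282, minus strand) encodes fructose bisphosphatase, which forms fructose 6-phosphate. It was at 1199, 1473, 1231, 1501 and 1296 CPM in Chow replicates 1 to 5, and at 1263, 1279, 1370.3, 1367 and 1363 CPM in TM5614 replicates 1 to 5. Fbp1 was the steadiest of the 10 genes, with a coefficient of variation of 10.4% in Chow and 3.98% in TM5614. Its log2 fold change of -0.01 had the narrowest interval, -0.23 to 0.20 (SE 0.10, edgeR adjusted p = 0.954).

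Pcx (ENSMUSG00000024892.17, chromosome 19, 4510472 to 4621752, plus strand) encodes pyruvate carboxylase, the mitochondrial enzyme that makes oxaloacetate from pyruvate. It was at 578, 775, 645, 550.4 and 637 CPM in Chow replicates 1 to 5, and at 676, 480.0, 545, 572 and 615 CPM in TM5614 replicates 1 to 5. The groups overlapped widely, with Chow replicate 2 highest and TM5614 replicate 2 lowest. The log2 fold change of -0.14 (SE 0.13, 95% interval -0.41 to 0.13) did not pass (edgeR adjusted p = 0.544). Without those 2 libraries it was -0.0043.

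The remaining 4 genes act on amino acids. Tat (ENSMUSG00000001670.13, chromosome 8, 109990437 to 109999803, plus strand) encodes tyrosine aminotransferase, an enzyme of tyrosine breakdown known to respond to glucocorticoids. It was at 1366, 672, 1504, 2938 and 2242 CPM in Chow replicates 1 to 5, and at 1817, 1683, 2991, 1996 and 3215 CPM in TM5614 replicates 1 to 5. Chow replicate 2 was the lowest and TM5614 replicates 3 and 5 were the highest, above all Chow libraries. The means were 1744 ± 869 and 2340 ± 709 CPM (SD, n = 5 each), and the log2 fold change of 0.42 (SE 0.33, 95% interval -0.30 to 1.14) did not pass (edgeR adjusted p = 0.486). Leaving out Chow replicate 2 gave 0.21, leaving out Chow replicate 4 gave 0.69 and leaving out TM5614 replicate 5 gave 0.28.

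Sds (ENSMUSG00000029597.14, chromosome 5, 120476526 to 120483932, plus strand) encodes serine dehydratase, which turns serine into pyruvate. It was at 230.3, 215, 263, 406 and 264 CPM in Chow replicates 1 to 5, and at 235, 263, 189, 176 and 260.3 CPM in TM5614 replicates 1 to 5. Chow replicate 4 stood above all other libraries, and TM5614 replicates 3 and 4 were below all Chow libraries. The log2 fold change of -0.29 (SE 0.18, 95% interval -0.69 to 0.10) did not pass (edgeR adjusted p = 0.382). It was -0.12 without Chow replicate 4 and -0.10 with GC content and gene length corrected.

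Got1 and Gpt encode the aminotransferases known from plasma tests of liver injury as AST and ALT. Got1 (ENSMUSG00000025190.13, chromosome 19, 43499752 to 43524605, minus strand), the cytosolic aspartate aminotransferase, was at 413, 168, 263, 754 and 334 CPM in Chow replicates 1 to 5. In TM5614 replicates 1 to 5 it was at 706, 690.0, 844, 406 and 667 CPM. Chow replicate 4 lay among the high TM5614 libraries and TM5614 replicate 4 lay among the Chow libraries, so the groups overlapped. The means were 386 ± 224 and 663 ± 159 CPM (SD, n = 5 each), and the log2 fold change of 0.78 (SE 0.33, 95% interval 0.05 to 1.51) did not pass over all genes (edgeR adjusted p = 0.217). Without Chow replicate 4 it was 1.17 (edgeR adjusted p = 0.0386), the one setting of 22 in which Got1 passed. Got1 had the widest spread of the 10 in Chow, with a coefficient of variation of 58.0%. Got2, the mitochondrial form, had a log2 fold change of -0.04 (edgeR adjusted p = 0.862).

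Gpt (ENSMUSG00000022546.5, chromosome 15, 76695716 to 76699686, plus strand), alanine aminotransferase, moves the amino group of alanine and leaves pyruvate. It was at 295, 579, 422, 440.0 and 358 CPM in Chow replicates 1 to 5, and at 312, 321, 248, 255 and 292 CPM in TM5614 replicates 1 to 5. Chow replicate 1 lay inside the TM5614 range, and 3 of 5 TM5614 libraries lay below all Chow libraries. The means were 419 ± 106 and 286 ± 33.2 CPM (SD, n = 5 each), and the log2 fold change of -0.55 (SE 0.17, 95% interval -0.91 to -0.19) did not pass (edgeR adjusted p = 0.0896). It passed in 4 of 22 alternative fits: DESeq2 (adjusted p = 0.0309), limma-voom with sample quality weights (adjusted p = 0.0242), without Chow replicate 1 (edgeR adjusted p = 0.0371) and without Chow replicate 2 and TM5614 replicate 2 together (edgeR adjusted p = 0.0389). Over its alternatives the adjusted p ran up to 0.224. Gpt2, the mitochondrial form, had a log2 fold change of 0.30 (edgeR adjusted p = 0.400).

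**Figure D3:**
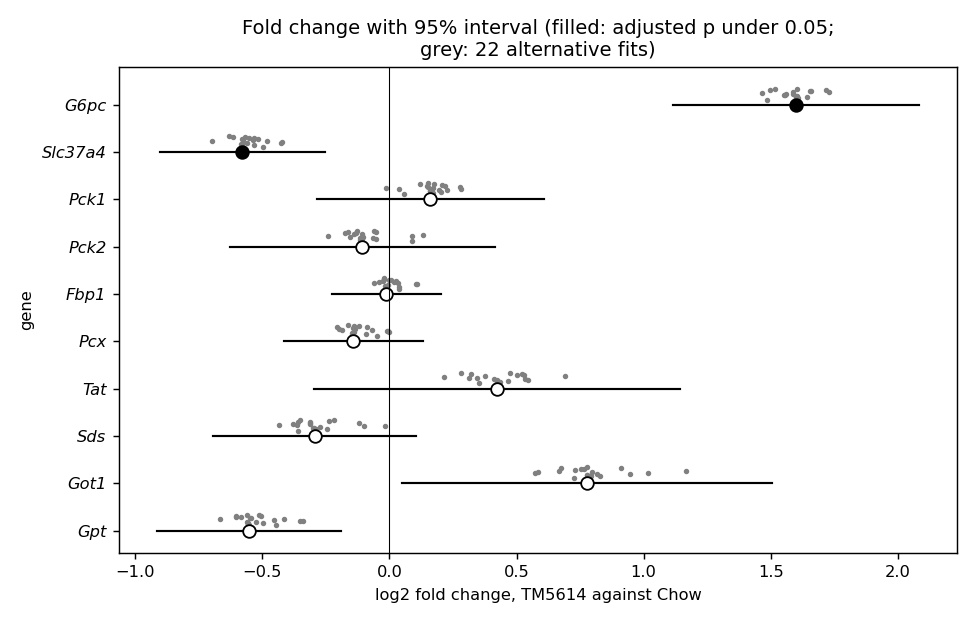
Log2 fold change of each gene, TM5614 against Chow, from edgeR's quasi-likelihood test (n = 5 per group). Circles are estimates, filled where the adjusted p was under 0.05, lines are 95% intervals and grey points are the 22 alternative fits. G6pc stands at 1.60 with all grey points between 1.47 and 1.73, Slc37a4 at -0.58, and the intervals of Pck1, Pck2, Fbp1, Pcx, Tat and Sds include 0.

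Levels were compared between genes per gene length, as the deposited FPKM (counts scaled by transcript length and by library). In Chow the order of mean FPKM was Pck1 (1738 ± 529), Fbp1 (895 ± 90.7), Tat (724 ± 359), Gpt (236 ± 59.9), Sds (234 ± 63.6), Got1 (185 ± 107), Pcx (147 ± 20.2), Slc37a4 (99.4 ± 19.2), G6pc (82.8 ± 22.3) and Pck2 (1.21 ± 0.44), each SD over n = 5. The ranges of neighbours in this order overlapped, except between Pcx and Slc37a4 and between G6pc and Pck2. In TM5614 the order was Pck1, Tat, Fbp1, Got1, G6pc, Sds, Gpt, Pcx, Slc37a4 and Pck2. G6pc took place 9 in Chow and place 5 in TM5614, where its mean was 251 ± 65.9 FPKM (SD, n = 5). In TM5614 the ranges of neighbours did not overlap between Pck1 and Tat, between Fbp1 and Got1, between Pcx and Slc37a4 and between Slc37a4 and Pck2. Per length, Pck1 was 15.2 to 28.5 times as abundant as G6pc in the Chow libraries and 6.04 to 10.2 times in the TM5614 libraries. The ratio of Got1 to Gpt was 0.247 to 1.46 in Chow and 1.36 to 2.90 in TM5614, and these ranges overlap through Chow replicate 4.

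**Figure D4:**
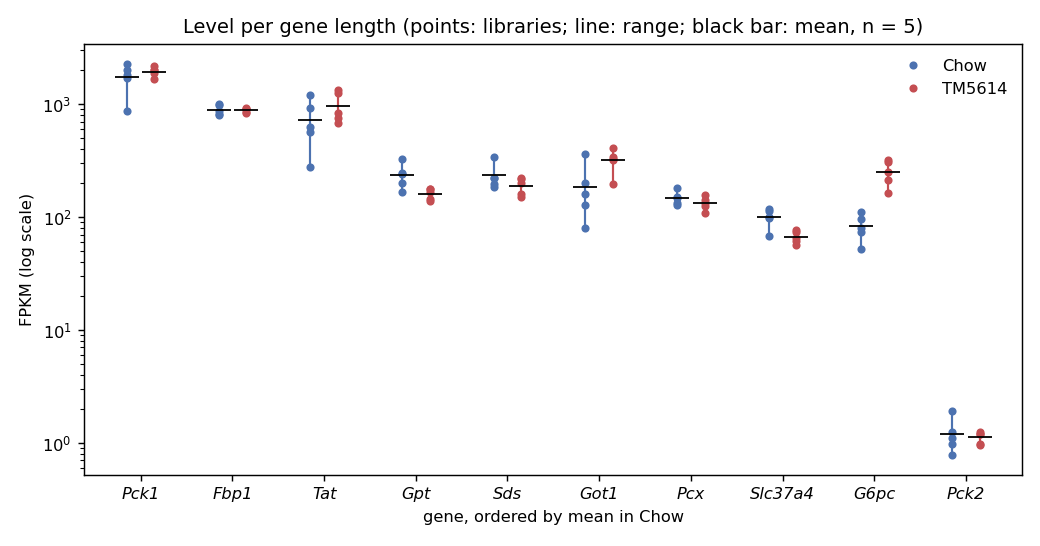
Level per gene length of the 10 genes, in FPKM on a log axis, ordered by their mean in Chow. Points are libraries, coloured lines their range and black bars the means (n = 5 per group; blue Chow, red TM5614). Pck1 is highest in both groups, Pck2 lowest at 1.21 and 1.12 FPKM, and G6pc shifts from 82.8 to 251 FPKM.

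Single libraries took extreme places in several genes. In the Chow group, replicate 2 was lowest in 5 of the 10 (G6pc, Pck1, Tat, Sds and Got1) and highest in 3 (Pck2, Pcx and Gpt), and replicate 4 was highest in 6 and lowest in 1. Replicate 2 had 0.334 times the mean of the other Chow libraries in Tat, 0.381 times in Got1, 0.449 times in Pck1 and 0.580 times in G6pc. It had 1.89 times that mean in Pck2 and 1.53 times in Gpt. The GC content of the transcripts ran from 47.7% in G6pc to 59.0% in Gpt, and the part that GC content took in these deviations was not tested. In TM5614, replicate 2 was lowest in 5 (G6pc, Slc37a4, Pck1, Pcx and Tat) and replicate 3 was highest in 4. Together the 10 genes took 0.631 to 1.30% of all counts in the Chow libraries and 1.01 to 1.32% in the TM5614 libraries.

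The reactions around these enzymes were followed in lists of related genes. Of 26 tested genes for the reversible steps, shuttles and transporters that feed gluconeogenesis, 2 rose, 0 fell and 24 did not pass in edgeR. EdgeR called 7.69%, against 4.50% of all genes tested, and the median log2 fold change was 0.09. Of the 26, 6 had an unadjusted p under 0.05 in edgeR (20.4% of all genes had). DESeq2 called 2 (8.14% of all genes) and limma-voom called 6 (12.5% of all genes). Ldha, whose lactate dehydrogenase subunit interconverts lactate and pyruvate, rose from 595 ± 49.6 to 1193 ± 118 CPM (SD, n = 5 each, log2 fold change 1.00, SE 0.11, edgeR adjusted p = 0.000402). Its Chow libraries lay at 562, 584, 664, 624 and 539.6 CPM. Its TM5614 libraries lay at 1087, 1073, 1306, 1322 and 1176 CPM, with no overlap, as in 8.93% of all genes tested. Slc16a1, which encodes the lactate and pyruvate transporter MCT1, rose from 46.7 ± 10.0 to 104 ± 19.7 CPM (SD, n = 5 each, log2 fold change 1.16, SE 0.17, edgeR adjusted p = 0.00266), again with no overlap. Both calls were kept in 22 of 22 alternative fits. Slc2a2, the glucose transporter of the hepatocyte membrane, had a log2 fold change of -0.60 that did not pass (edgeR adjusted p = 0.203).

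The list of other amino acid catabolism genes held 60 tested members, of which 1 rose, 4 fell and 55 did not pass in edgeR. EdgeR called 8.33%, against 4.50% of all genes tested, and the median log2 fold change was -0.05. Of the 60, 24 had an unadjusted p under 0.05 in edgeR (20.4% of all genes had). DESeq2 called 10 (8.14% of all genes) and limma-voom called 16 (12.5% of all genes). Prodh, proline dehydrogenase, fell from 209 ± 42.8 to 104 ± 13.1 CPM (SD, n = 5 each, log2 fold change -1.01, SE 0.15, edgeR adjusted p = 0.00244). Prodh lay between 167 and 277 CPM in Chow and between 87.8 and 124 CPM in TM5614. Aldh4a1, which takes the next step of proline breakdown, had a log2 fold change of -0.41 that did not pass (edgeR adjusted p = 0.0620). Pipox, an oxidase of pipecolate and sarcosine, fell by 0.46 on the log2 scale (edgeR adjusted p = 0.0299).

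The other 3 edgeR calls of that list lay in tryptophan breakdown and differed in sign. Afmid, which hydrolyses formylkynurenine, fell from 274 ± 30.3 to 166 ± 24.3 CPM (SD, n = 5 each, log2 fold change -0.72, SE 0.12, edgeR adjusted p = 0.00700). Haao, which acts near the end of the route to quinolinate, fell by 0.80 on the log2 scale (edgeR adjusted p = 0.0285). Kynu, kynureninase, rose by 0.76 on the log2 scale (edgeR adjusted p = 0.0429). The groups did not overlap in any of the 3, as in 8.93% of all genes tested. Tdo2, which opens the pathway, and Kmo did not pass, with log2 fold changes of 0.16 and 0.07 (edgeR adjusted p = 0.740 and 0.801). The calls of Prodh and Afmid were kept in 22 of 22 alternative fits, and those of Haao, Kynu and Pipox in 17, 13 and 14. With single libraries left out, Kynu stayed past the threshold without Chow replicate 1 or 2, Haao without Chow replicate 1, 2, 4 or 5 or TM5614 replicate 1, and Pipox without Chow replicate 2 or 4 or TM5614 replicate 1. Each of the 3 was lost without any other library.

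Of 24 regulators of gluconeogenesis, all tested, 1 rose and 1 fell in edgeR. EdgeR called 8.33%, against 4.50% of all genes tested, and the median log2 fold change was -0.02. Of the 24, 3 had an unadjusted p under 0.05 in edgeR (20.4% of all genes had). DESeq2 called 2 (8.14% of all genes) and limma-voom called 3 (12.5% of all genes). Irs1, an adaptor of the insulin receptor, went from 29.9 ± 6.33 to 45.9 ± 5.50 CPM (SD, n = 5 each, log2 fold change 0.62, SE 0.16, edgeR adjusted p = 0.0485). Ppargc1b, a transcriptional coactivator, went from 20.3 ± 6.18 to 11.5 ± 1.62 CPM (SD, n = 5 each, log2 fold change -0.83, SE 0.21, edgeR adjusted p = 0.0417). These calls were kept in 12 and 14 of 22 alternative fits, and with single libraries left out they stayed without Chow replicate 2 or 5 (Irs1) and without Chow replicate 2, 3 or 5 (Ppargc1b). Ppargc1a, a relative of Ppargc1b known to coactivate G6pc and Pck1 transcription, had a log2 fold change of 0.14 (edgeR adjusted p = 0.826), Foxo1 had -0.26 (edgeR adjusted p = 0.360) and Nr3c1, the glucocorticoid receptor, had 0.02 (edgeR adjusted p = 0.950).

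Of 16 glucocorticoid and fasting response genes, 0 rose and 1 fell (6.25% called, against 4.50% of all genes tested). In the same test 11 of the 16 had an unadjusted p under 0.05, as had 20.4% of all genes. Per1, a clock gene induced by glucocorticoids, fell from 52.8 ± 9.67 to 31.4 ± 6.58 CPM (SD, n = 5 each, log2 fold change -0.75, SE 0.17, edgeR adjusted p = 0.0304). With single libraries left out Per1 stayed past the threshold without Chow replicate 1 or 2 or TM5614 replicate 5. It was kept in 14 of 22 alternative fits and lost with GC content and gene length corrected (log2 fold change -0.59, edgeR adjusted p = 0.0948). With that correction and a block on the replicate number Per1 passed (log2 fold change -0.61, edgeR adjusted p = 0.00837). The estimates of this list ran from -2.16 for Mt2 to 1.13 for Igfbp1, and neither passed (edgeR adjusted p = 0.0536 and 0.211). Under DESeq2 5 of the 16 passed and under limma-voom 9, against 8.14% and 12.5% of all genes. Among the 11 tested genes of the opposing glycolytic steps, edgeR called 0. Of these, 3 had an unadjusted p under 0.05 (20.4% of all genes had), DESeq2 called 1 (8.14% of all genes) and limma-voom called 1 (12.5% of all genes). Their median log2 fold change was -0.39, and 8 of 11 estimates were below 0. Pklr, the liver pyruvate kinase, had a log2 fold change of -0.98 that did not pass (edgeR adjusted p = 0.0613).

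**Figure D5:**
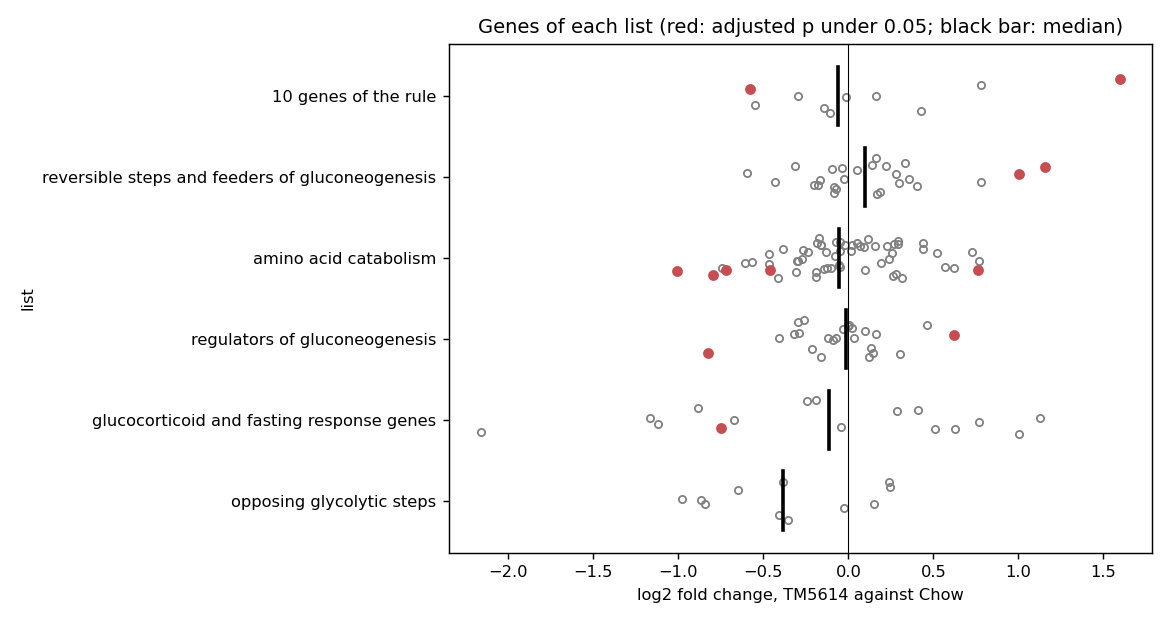
Log2 fold change, TM5614 against Chow, of the 10 genes and of every tested gene of 5 lists of related genes (n = 5 per group). Points are genes, red where the edgeR adjusted p was under 0.05, and black bars are medians. Red points stand on both sides of 0, and the list medians run from -0.39 for the opposing glycolytic steps to 0.09 for the reversible steps and feeders.

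Gluconeogenic enzymes are known to be most abundant around the portal vein, so zone markers are given beside these results. Of 11 periportal markers, 0 passed in edgeR, DESeq2 and limma-voom, 1 had an unadjusted p under 0.05 in edgeR, and the median log2 fold change was 0.11. Over all genes, 4.50% passed in edgeR, 8.14% in DESeq2 and 12.5% in limma-voom, and 20.4% had an unadjusted p under 0.05 in edgeR. The same shares are the reference for the lists that follow. Of 12 pericentral markers, 1 rose (Axin2) and 4 fell (Cyp1a2, Gulo, Rgn and Lect2), with a median of -0.00072. These are 41.7% of the list, against 4.50% of all genes tested, and DESeq2 and limma-voom called 5 each. All 11 Kupffer cell and macrophage markers had estimates below 0, and 0 passed in edgeR, DESeq2 and limma-voom (0 at an unadjusted p under 0.05). Their summed level was 84.7 to 271 CPM in Chow and 85.2 to 181 CPM in TM5614. All 8 stellate cell markers had estimates above 0, and edgeR called 0, DESeq2 0 and limma-voom 1, with 2 at an unadjusted p under 0.05 in edgeR. Their summed level was 163 to 288 CPM in Chow and 261 to 555 CPM in TM5614, and at most 347 CPM without TM5614 replicate 2. Of the 8, Des was at 2.44 ± 1.29 CPM in Chow and 54.7 ± 113 CPM in TM5614 (SD, n = 5 each, log2 fold change 4.47). The part of the muscle RNA of TM5614 replicate 2 in the level of Des was not tested. All 3 tested cholangiocyte markers were above 0 and 5 of 7 hepatocyte markers below 0, and edgeR called 0 in both lists (0 and 2 at an unadjusted p under 0.05), while DESeq2 and limma-voom each called 0 cholangiocyte markers and 1 hepatocyte marker. The 4 hemoglobin genes among the erythroid markers were listed at 0 in every library. In lists this short, a count of 0 does not show that zone or cell make-up was unchanged. The part of zone or cell make-up in the levels of the 10 genes was not tested.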

How the data were processed

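Liver RNA of 10 mice was sequenced as single-end reads of 75 bases. Per the study's methods the reads were aligned with STAR to mm10 and analysed with DESeq2 in RNA Express, and the submitters' processing notes also list HOMER. The counter, the annotation, the use of strand and the versions are not given in the sources used here. The authors deposited raw whole-number counts by gene symbol, and FPKM, in which counts are divided by gene length and scaled by library. Their regularised log2 table and the table of their own comparison (mean count, log2 fold change, standard error, statistic, p-value and adjusted p-value) were not used.

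Groups and replicate numbers came from the sample titles, and columns were matched by mouse number. Genes were kept with filterByExpr and scaled with TMM, and tested two-sided with edgeR 4.0.16 (glmQLFit, glmQLFTest, group as the single term, R 4.3.3). P-values were adjusted over 11092 genes after Benjamini and Hochberg, with a threshold of 0.05. Log2 CPM had a prior count of 2, and CPM are counts over TMM-scaled library size. Intervals are 95% intervals of the fit. The log2 fold change of all genes had a median of 0.01, and the scalings tried moved it by at most 0.05. No pair of libraries within a group matched within sampling noise (lowest chi-square per degree of freedom 7.99). The 10 genes and the gene lists were chosen with earlier results of these data known. All 10 are named, and of each pathway list the genes past the threshold, at most 6 by absolute log2 fold change. Unpassed genes beside them are named as relatives or list members and were chosen after their values were seen. The alternatives were DESeq2 1.42.0, limma-voom (limma 3.58.1) with sample quality weights, robust dispersion, scaling by RLE factors, by upper-quartile factors or by library totals, no filter, a filter of at least 10 counts per library, a block on the replicate number, a GC content and gene length correction (a spline with 5 degrees of freedom each, over the 96.5% of tested genes with both), that correction with the block, the omission of Chow replicate 2 and TM5614 replicate 2, and of each library in turn. An exact two-sided permutation test over libraries of mean log2 CPM, unadjusted, was run for the 10 genes. Coordinates come from GENCODE M21 (GRCm38, the same assembly as mm10). No batch or time of collection is given in the labels, and none was used in a fit.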

Additional observations from a re-analysis of the deposited data

Results flagged for a closer look

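In groups of 5 libraries, the gap between the highest or lowest library and its nearest neighbour was set against the range of the group. Of 40 groups (20 genes in both groups), 2 had a library far from the others, where chance gives about 1 in 20, or 2. The level of Sds in Chow replicate 4 was 406 CPM, while the other Chow libraries lay between 215 and 264 CPM. The level of Haao in Chow replicate 2 was 607 CPM, while the other Chow libraries lay between 314 and 351 CPM, and without that library its log2 fold change was -0.59 (edgeR adjusted p = 0.00168).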

How the results depend on the processing

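Over the 10 genes and 22 alternative fits, 190 of 220 log2 fold changes kept their direction and side of the threshold. Of the rest, 13 fell short of the threshold (Slc37a4), 5 newly passed it (Gpt and Got1) and 12 changed sign. All of the last were in Pck1, Pck2 and Fbp1, whose estimates lay near 0. Over the 10 called list genes, 172 of 220 kept their call and 48 lost it. In the exact permutation test over libraries, whose p-values are unadjusted, Gpt had p = 0.0238. With single libraries left out, the log2 fold change ran from -0.014 (without Chow replicate 2) to 0.28 in Pck1, from -0.24 to 0.13 (without Chow replicate 2) in Pck2, and from -0.060 to 0.024 (above 0 without Chow replicate 2, Chow replicate 4 or TM5614 replicate 1) in Fbp1. That of Pck2 was 0.087 under limma-voom and 0.088 without Chow replicate 2 and TM5614 replicate 2 together. That of Fbp1 was 0.038 under limma-voom, 0.037 with library totals, 0.10 with GC content and gene length corrected, 0.11 with that correction and the replicate block, and 0.035 without Chow replicate 2 and TM5614 replicate 2 together. The genes changed over all genes numbered 499, against 900 under DESeq2, 1386 under limma-voom, 755 with GC content, gene length and the replicate block, 1230 without Chow replicate 2 and TM5614 replicate 2 together, and 235 (without TM5614 replicate 3) to 1031 (without Chow replicate 2) when single libraries were left out. Of the 10 genes 2 passed, against 1 (G6pc) with robust dispersion, upper-quartile factors, no filter, library totals and the GC content and gene length correction. When single libraries were left out, 1 to 3 passed. Of the pathway list genes 10 passed, against 20 under DESeq2, 35 under limma-voom, 6 with no filter, 16 with GC content and gene length corrected, 22 with that correction and the replicate block, 29 without Chow replicate 2 and TM5614 replicate 2 together, and 4 to 27 when single libraries were left out. The causes were not tested.

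With the replicate number as a block, 555 genes over all genes tested, 2 of the 10 genes (G6pc and Slc37a4) and 19 pathway list genes passed. Same-numbered libraries deviated together with correlations of 0.03, 0.32, 0.12, 0.03 and 0.25 for replicates 1 to 5, and of these the libraries of replicate 2 correlated best with their own number, so the numbers were read as names and not as pairs. Depth limits Pck2 most, at 22 to 69 counts per library. Levels per annotated exon length in place of FPKM left 7 of the 10 genes at the same place in the order of Chow means, and Gpt, Sds and Got1 changed places.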
